A study of Mus musculus with 22 samples.

Results

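The macrophage inflammatory CC chemokine cluster is a run of genes on mouse chromosome 11, most of which encode small secreted proteins that attract leukocytes. The 6 genes described here, Ccl3, Ccl4, Ccl5, Ccl6, Ccl9 and Gm11428, were selected by name from the 55401 gene identifiers of the count table, and each was found once. They were chosen on levels and differences already seen in these libraries, over both comparisons of both sets of cultures, so their own values are given as a description, without a test. Tests are given only for genes outside the 6.

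The 22 RNA-seq libraries were made from mouse embryonic fibroblasts (MEFs), primary cultures of embryo bodies without head and viscera, here from mice on the C57BL/6 background, that stop dividing and become senescent when passaged serially in atmospheric oxygen. The S6K1 set held 4 libraries of WT MEFs at passage 3 (early), 4 of WT MEFs at passage 8 (late) and 3 of S6K1 KO MEFs at passage 8. In the S6K1/S6K2 set there were 4 early WT libraries at passage 3, 4 late WT libraries at passage 8 and 3 libraries of S6K1/S6K2 double KO (DKO) MEFs at passage 8. The comparisons asked which genes differ between early and late WT MEFs, and which of them differ again when S6 kinases, enzymes downstream of mTORC1, are missing. Both deletions were constitutive, so they were carried by every cell of the embryo. WT and S6K1 KO MEFs came from the same mothers, whereas embryos of separate WT mothers, taken earlier in the breeding, gave the controls of the DKO MEFs, so genotype and litter cannot be told apart in that set. No mutant MEFs at passage 3 were analysed here. The labels do not say which libraries came from separate embryos. Libraries with and without Y-linked transcripts occurred together in 5 of the 6 groups, so each of these 5 held more than 1 embryo, and P values measure the spread between these libraries. Libraries are numbered within each group in the order of the labels, and the numbers do not pair libraries.

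Total counts per library were 10742454 to 17314832. Levels are given in CPM, counts relative to the size of each library, after scaling by edgeR's TMM method over all 22 libraries. Before this scaling a count of 3 was worth 0.173 to 0.279 CPM, a limit that reflects counting error alone. Rps6kb1, which encodes S6K1, was at 20.1 ± 5.15 CPM in KO and 23.6 ± 4.30 CPM in DKO MEFs (SD, n = 3 each), below every late WT library of its set (adjusted P = 0.00744 and 0.000786, edgeR quasi-likelihood test). Late WT means were 63.7 ± 8.78 and 73.5 ± 10.7 CPM (SD, n = 4 each), so reads on Rps6kb1 were reduced but not absent in both mutants. Rps6kb2, which encodes S6K2, was at 0.804 ± 0.484 CPM in DKO MEFs (SD, n = 3) against 13.1 ± 2.56 CPM in their late WT MEFs (SD, n = 4; adjusted P = 0.000412, edgeR). Fibroblast markers were abundant in every library: 10 of them summed to 19245 to 39417 CPM. Of the 20 macrophage markers, all were detected above 3 counts in at least 1 library of each group, so the cultures were not free of macrophage transcripts. In bulk RNA, fewer cells of a type and less RNA per cell cannot be told apart.

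CC chemokines carry adjacent cysteines near their start and act on G protein-coupled receptors of leukocytes. Ccl3 (MIP-1 alpha) and Ccl4 (MIP-1 beta) are made in bursts by activated macrophages, and Ccl3 signals through Ccr1, among others. Ccl5 (RANTES), made by T cells, macrophages and stimulated fibroblasts, responds to NF-kappa-B and interferon-regulatory factors. Ccl6 and Ccl9 are a closely related rodent pair of Ccr1 ligands with an extended start, made constitutively by myeloid cells. Gm11428 is listed by RefSeq as Wfdc17, a gene of the whey acidic protein family that is known from activated macrophages and microglia. It lies in the same interval but encodes no chemokine. CC chemokines are also among the factors secreted by senescent cells.

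In the GRCm38.p6 assembly, by RefSeq, the order along chromosome 11 is Ccl5 (83525778 to 83530518), Ccl9 (83572917 to 83578636), Ccl6 (83587886 to 83593087), Ccl3 (83647843 to 83649378), Ccl4 (83648624 to 83664683) and Gm11428 (83704056 to 83706269). The 6 genes span 180 kb. The RefSeq interval of Ccl4, which includes predicted transcripts, overlaps that of Ccl3, and the strand setting of the counting is not given in the sources used here. Windows of 50 bases, the read length, were compared between protein-coding transcripts of GENCODE vM1. None of the windows of Ccl3, Ccl4, Ccl5, Ccl6 and Gm11428 occurred in a transcript of another gene, and 56 of 2989 windows of Ccl9 did (1.87%).

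RefSeq promoter sequences, from 250 bases before to 50 bases after the start of the gene, matched 4 of the 6 genes. They are shown because these 4 genes were high together in late WT MEFs. Capitals mark every match, on either strand, to the letters of 6 motifs. The AP-1 letters are TGANTCA, those of PU.1 are GAGGAA and those of TATA are TATAAA. The NF-kappa-B letters are GGG and CC with 5 bases of any kind between them, the C/EBP letters TTGC and AA with 2 between, and the interferon response letters GAAA and GAAA with 2 between. Ccl9 (chr11:83578587-83578886, minus strand), Ccl6 (chr11:83593038-83593337, minus strand), Ccl3 (chr11:83649329-83649628, minus strand) and Gm11428 (chr11:83703806-83704105, plus strand) read as follows.
Ccl9: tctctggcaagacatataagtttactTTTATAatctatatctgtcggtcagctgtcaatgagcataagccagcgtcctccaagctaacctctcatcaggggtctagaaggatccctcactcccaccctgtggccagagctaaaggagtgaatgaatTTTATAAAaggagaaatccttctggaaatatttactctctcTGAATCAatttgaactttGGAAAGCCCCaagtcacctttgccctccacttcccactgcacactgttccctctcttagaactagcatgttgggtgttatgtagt
Ccl6: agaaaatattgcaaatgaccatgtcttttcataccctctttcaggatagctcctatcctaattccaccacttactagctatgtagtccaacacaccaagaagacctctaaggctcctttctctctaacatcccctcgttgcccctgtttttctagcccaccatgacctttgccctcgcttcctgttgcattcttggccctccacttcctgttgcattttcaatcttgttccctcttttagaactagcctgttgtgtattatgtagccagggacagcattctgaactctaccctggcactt
Ccl3: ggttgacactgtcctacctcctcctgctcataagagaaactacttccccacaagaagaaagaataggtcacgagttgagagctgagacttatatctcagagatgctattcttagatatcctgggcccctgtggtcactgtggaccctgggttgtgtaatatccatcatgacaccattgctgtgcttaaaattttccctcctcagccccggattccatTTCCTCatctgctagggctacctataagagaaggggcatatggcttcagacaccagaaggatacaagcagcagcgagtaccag
Gm11428: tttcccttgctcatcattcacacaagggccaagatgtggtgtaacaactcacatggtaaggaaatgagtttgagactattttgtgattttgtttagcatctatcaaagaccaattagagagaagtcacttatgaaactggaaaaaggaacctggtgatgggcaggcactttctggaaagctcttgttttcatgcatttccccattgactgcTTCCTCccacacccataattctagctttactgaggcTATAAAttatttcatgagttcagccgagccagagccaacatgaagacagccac

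Ccl9 was the only one of these 4 promoters with the AP-1 letters, 53 bases before the start, and with the NF-kappa-B letters, 35 bases before it. The AP-1 letters occurred in 7.81% and the NF-kappa-B letters in 50.8% of the 32851 promoters of the table. Its TATA letters stood at 3 places, of which the pair at 94 and 92 bases before the start overlap on opposite strands. The PU.1 letters, found in 28.3% of all promoters, occurred in Ccl3 33 bases and in Gm11428 39 bases before the start. Gm11428 also held the TATA letters, 3 bases before the start given by RefSeq, and 13.6% of all promoters held them. No letters of the 6 motifs were found in the Ccl6 window, and the C/EBP (10.8% of all promoters) and interferon response letters (3.44%) were found in none of the 4. The promoters of Ccl6 and Ccl9 were identical at 71.1% of aligned bases, against 57.9 to 63.7% for the other pairs, and their longest shared run was gccctccacttcc, of 13 bases.

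Gm11428 differed most between groups, with means of 1.00 ± 0.287 and 64.8 ± 14.4 CPM in early and late WT (SD, n = 4) and 5.08 ± 0.916 CPM in KO (SD, n = 3). It was at 0.607, 1.11, 1.00 and 1.29 CPM in the 4 early WT libraries of the S6K1 set, at 84.5, 49.9, 63.3 and 61.5 CPM in the late WT libraries and at 4.09, 5.26 and 5.89 CPM in the KO libraries. The 3 groups did not overlap, and KO libraries stood between early and late WT. On the log2 scale, late WT was 6.03 above early WT (SE 0.27), and late KO was 3.67 below late WT (log2 fold change -3.67, SE 0.26) but 2.36 above early WT (SE 0.27). In the S6K1/S6K2 set it was at 0.850, 0.614, 3.19 and 4.82 CPM in early WT, at 39.5, 86.3, 77.4 and 46.0 CPM in late WT and at 4.24, 1.04 and 0.309 CPM in DKO libraries. Here DKO libraries overlapped with early WT, and both lay below all late WT libraries. Late WT was 4.77 above early WT (SE 0.71), and DKO was lower than late WT by a log2 fold change of -5.10 (SE 0.84), which became -6.63 without DKO library 1. Without early WT library 4 the passage difference was 5.38.

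Ccl9 and Ccl6, the rodent pair of Ccr1 ligands, followed the same order in the S6K1 set. Ccl9 was at 8.72, 7.52, 8.31 and 5.83 CPM in early WT, at 59.3, 23.6, 46.6 and 34.8 CPM in late WT and at 9.73, 9.03 and 8.84 CPM in KO libraries. KO libraries lay within a narrow range just above the highest early WT library and well under the lowest late WT library. The log2 fold change of late against early WT was 2.43 (SE 0.25), that of KO against late WT -2.16 (SE 0.28), and that of KO against early WT 0.27 (SE 0.27). Ccl6 was far less abundant, at 0.773, 0.590, 0.589 and 0.686 CPM in early WT, at 5.68, 1.75, 4.76 and 2.71 CPM in late WT and at 1.76, 1.05 and 1.06 CPM in KO libraries. Late WT and KO overlapped by a single library, whose 1.76 CPM lay beside the lowest late WT value. Ccl6 differed by 2.48 between late and early WT (SE 0.41), by -1.53 between KO and late WT (SE 0.43) and by 0.95 between KO and early WT (SE 0.44) on the log2 scale.

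The pair was, in the S6K1/S6K2 set, lower in DKO than in either WT group on average. Ccl9 was at 6.57, 5.71, 21.0 and 18.5 CPM in early WT, at 24.5, 48.0, 31.0 and 30.4 CPM in late WT and at 4.74, 2.64 and 1.54 CPM in DKO libraries. No DKO library reached the lowest early WT library, and no early WT library reached late WT. Its log2 fold changes were 1.42 for late against early WT (SE 0.44), -3.51 for DKO against late WT (SE 0.57) and -2.09 for DKO against early WT (SE 0.55). Ccl6 was at 1.02, 0.552, 1.89 and 2.38 CPM in early WT, at 2.19, 7.40, 2.54 and 4.58 CPM in late WT and at 0.665, 0.377 and 0.309 CPM in DKO libraries. Early and late WT overlapped for Ccl6, early WT and DKO overlapped through DKO library 1, and late WT and DKO did not overlap. The corresponding values were 1.56 (SE 0.50), -3.21 (SE 0.64) and -1.65 (SE 0.64).

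Ccl3 and Ccl4, the MIP-1 ligands, were both highest in the late WT libraries of each set. In the S6K1 set Ccl3 was at 2.65, 5.23, 5.07 and 1.71 CPM in early WT, at 14.9, 8.85, 8.41 and 8.80 CPM in late WT and at 1.90, 2.04 and 1.74 CPM in KO libraries. KO libraries lay at the lower end of early WT, and late WT lay above both. Late WT library 1 stood apart from the other 3, which were within 8.41 to 8.85 CPM. Ccl4 was at 1.88, 4.35, 4.06 and 1.63 CPM in early WT, at 16.2, 13.5, 13.4 and 12.5 CPM in late WT and at 3.17, 2.72 and 2.34 CPM in KO libraries. KO libraries lay inside the early WT range. The log2 fold changes of late against early WT were 1.47 for Ccl3 (SE 0.34) and 2.21 for Ccl4 (SE 0.31), and those of KO against late WT were -2.43 (SE 0.40) and -2.34 (SE 0.34).

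The S6K1/S6K2 set showed larger differences for both MIP-1 genes. Ccl3 was at 1.64, 1.29, 3.52 and 4.49 CPM in early WT, at 26.7, 39.3, 22 and 17.0 CPM in late WT and at 3.57, 2.17 and 2.16 CPM in DKO libraries. Ccl4 was at 1.25, 0.798, 3.97 and 4.23 CPM in early WT, at 19.5, 27.3, 16.5 and 13.2 CPM in late WT and at 3.99, 1.70 and 0.989 CPM in DKO libraries. For both genes DKO libraries overlapped with early WT and stood below all late WT libraries. Late against early WT differed by 3.31 for Ccl3 (SE 0.40) and 2.95 for Ccl4 (SE 0.54) on the log2 scale. DKO against late WT differed by -3.32 (SE 0.45) and -3.12 (SE 0.62), the latter -3.85 without DKO library 1. Between the MEF sets, the difference in these fold changes was not tested, because the genes were chosen on them.

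Ccl5 did not share this pattern. In the S6K1 set it was at 1.88, 4.79, 3.30 and 3.43 CPM in early WT, at 7.00, 2.47, 0.928 and 2.54 CPM in late WT and at 2.82, 11.4 and 1.44 CPM in KO libraries. In the S6K1/S6K2 set it was at 1.08, 1.53, 1.11 and 0.132 CPM in early WT, at 1.88, 0.830, 0.145 and 0.191 CPM in late WT and at 0.665, 0.283 and 0.618 CPM in DKO libraries. All groups of a set overlapped, and the spread within a group was as wide as the gaps between groups, with as few as 2 counts in a library of the S6K1/S6K2 set. Late against early WT differed by -0.06 (SE 0.66) and -0.28 (SE 0.76), KO against late WT by 0.70 (SE 0.70) and DKO against late WT by -0.53 (SE 0.88) on the log2 scale. A single KO library, with 185 counts, held the KO mean up: without KO library 2 the value was -0.61. It was 1.42 without late WT library 1 of the S6K1 set, where the passage difference lay between -0.78 and 0.29 over the libraries left out in turn, and the DKO value was 0.44 without late WT library 1 of its set. The passage difference of the S6K1/S6K2 set was -1.26 without that same library.

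**Figure D1:**
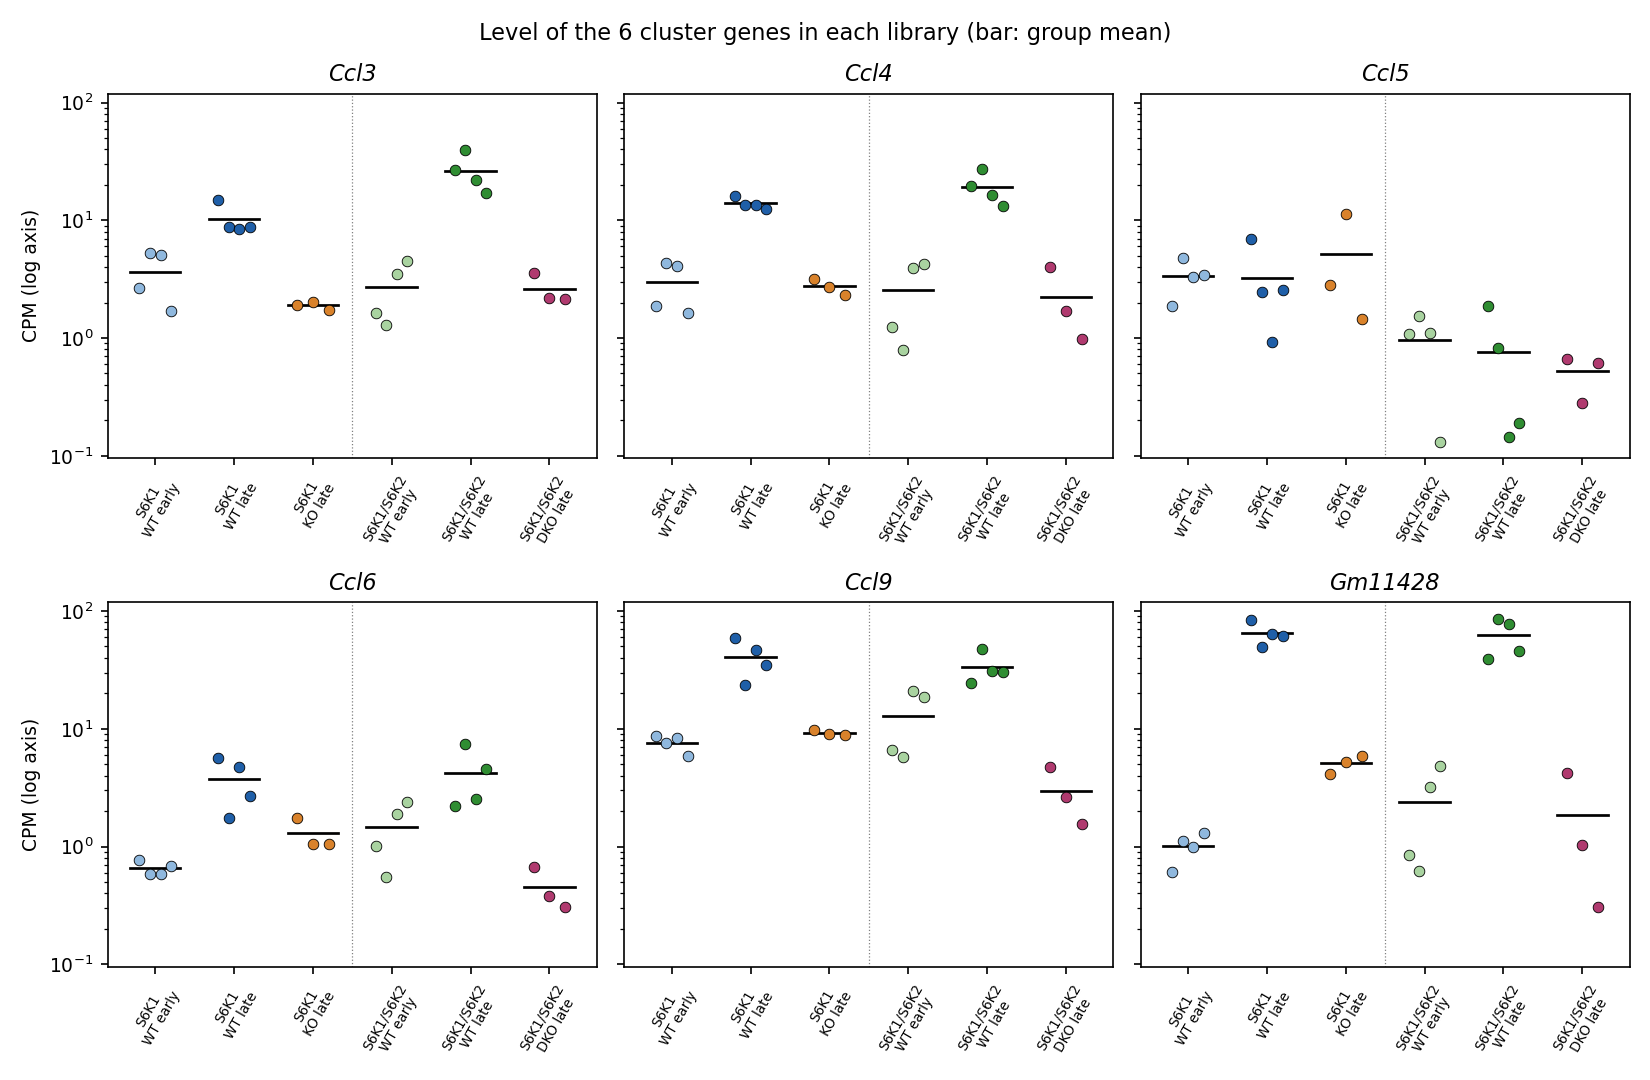
Level of the 6 cluster genes in CPM (log axis) in each of the 22 libraries, by group, with points for libraries and bars for group means. For Gm11428, Ccl9, Ccl3 and Ccl4 the 4 late WT libraries of each set lie above all other libraries of the set, whereas the groups overlap for Ccl5.

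Across the 6 genes, the early and late WT libraries of the S6K1 set did not overlap for 5, all higher in late WT, where 9.07% of all 14132 tested genes were higher without overlap. KO and late WT did not overlap for 4, all lower in KO (6.21% of all tested genes), and KO lay above early WT without overlap for Ccl6, Ccl9 and Gm11428 (13.6%). In the S6K1/S6K2 set, with 14365 tested genes, late WT lay above early WT without overlap for 4 of the 6 (10.03%), DKO lay below late WT for 5 (10.5%) and DKO lay below early WT for Ccl9 alone (17.6%). Since these contrasts were used in choosing the genes, nothing is read from these counts. All 6 genes passed edgeR's filter on low counts in both sets. The median log2 fold change of the 6 was 2.32 for passage and -2.25 for genotype in the S6K1 set, and 2.25 and -3.26 in the S6K1/S6K2 set, with medians over all tested genes of -0.04, -0.01, 0.01 and -0.01. The passage and genotype comparisons of a set share the same late WT libraries, so a high late WT value enters both.

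Against early WT, the values of the mutant MEFs lay closer to 0 than against late WT for most of the 6 genes. The median log2 fold change of the 6 genes was 0.45 for late KO and -0.57 for late DKO against the early WT MEFs of their set. These comparisons were added after the data were seen, and they differ in passage and genotype at once. For Ccl3 and Ccl4 the values were -0.96 (SE 0.39) and -0.13 (SE 0.34) in the S6K1 set and -0.01 (SE 0.44) and -0.17 (SE 0.61) in the S6K1/S6K2 set. With single libraries left out, the DKO value of Ccl3 lay between -0.29 (without DKO library 1) and 0.34 (without early WT library 4), that of Ccl4 between -0.92 (without DKO library 1) and 0.21 (without DKO library 3), and the KO value of Ccl4 between -0.32 and 0.10 (without early WT library 4 and 2). For Gm11428 in DKO the value was -0.33 (SE 0.83), which became -1.87 without DKO library 1 and 0.28 without early WT library 4. For Ccl5 the value was 0.64 (SE 0.70) in KO, or -0.63 without KO library 2, and -0.81 (SE 0.87) in DKO.

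**Figure D2:**
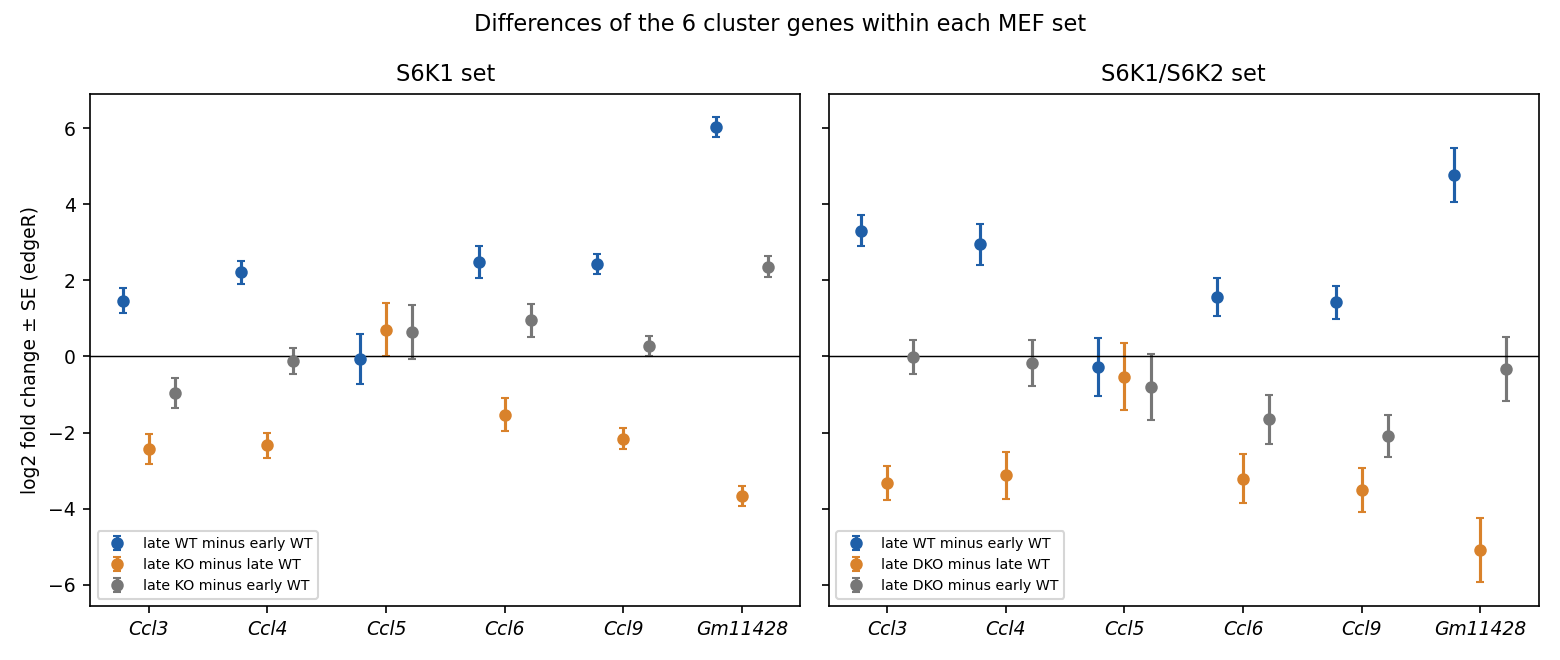
Log2 fold changes of the 6 cluster genes with their SE from edgeR (error bars), for late WT minus early WT, late mutant minus late WT and late mutant minus early WT, in the S6K1 set (left) and the S6K1/S6K2 set (right). Passage and genotype values lie on opposite sides of 0 for the 5 genes other than Ccl5 in both sets, while those of Ccl5 (-0.06 and 0.70, and -0.28 and -0.53) lie near 0 with wide errors, and Gm11428 has the largest of each, at 6.03 and -3.67 in the S6K1 set.

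Levels of different genes were compared per kb of exon (GENCODE vM1). In late WT MEFs of the S6K1 set Gm11428 led with 122 ± 27.0 CPM per kb, followed by Ccl4 at 21.1 ± 2.39, Ccl9 at 13.5 ± 5.04, Ccl3 at 13.4 ± 4.03, Ccl5 at 3.37 ± 2.73 and Ccl6 at 2.07 ± 1.01 CPM per kb (SD, n = 4). Ccl9 and Ccl3, and Ccl5 and Ccl6, did not differ beyond their spread. In late WT MEFs of the S6K1/S6K2 set the order was Gm11428 at 117 ± 43.2, Ccl3 at 34.3 ± 12.5, Ccl4 at 29.0 ± 9.16, Ccl9 at 11 ± 3.32, Ccl6 at 2.33 ± 1.33 and Ccl5 at 0.794 ± 0.843 CPM per kb (SD, n = 4), with Ccl3 and Ccl4 within each other's spread. In early WT MEFs the lead of Gm11428 was gone. It was at 1.88 ± 0.539 CPM per kb in the S6K1 set, below Ccl3 at 4.79 ± 2.29, and at 4.44 ± 3.76 CPM per kb in the S6K1/S6K2 set, within the spread of Ccl9 at 4.25 ± 2.60 (SD, n = 4). In KO MEFs it had the highest mean, at 9.53 ± 1.72 CPM per kb, within the spread of Ccl5 at 5.45 ± 5.65 (SD, n = 3), and in DKO MEFs it was at 3.49 ± 3.92 CPM per kb beside Ccl3 at 3.44 ± 1.06 (SD, n = 3).

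Macrophage markers moved with the cluster genes. The 20 markers, among them Csf1r, the receptor of macrophage colony-stimulating factor, and Adgre1 (F4/80), summed to 517 to 1194 CPM in early WT, 5779 to 11963 CPM in late WT and 3878 to 5205 CPM in KO libraries of the S6K1 set. The sums were 642 to 2159 CPM in early WT, 7957 to 13647 CPM in late WT and 1000 to 3641 CPM in DKO libraries of the S6K1/S6K2 set. Late WT libraries were highest in both sets, KO libraries stood between early and late WT, and DKO libraries overlapped with early WT. All 20 markers rose between early and late WT MEFs of the S6K1 set (edgeR, adjusted over all genes), where 6.96% of tested genes rose and 5.97% fell. The marker list, like the other gene lists, was chosen with earlier results of these data known, so its counts are a description. The smallest adjusted P values were those of Mpeg1 (log2 fold change 2.96, SE 0.22, adjusted P = 1.2e-05), Adgre1 (3.70, SE 0.28, adjusted P = 1.33e-05) and Laptm5 (3.45, SE 0.27, adjusted P = 1.51e-05, edgeR). In the S6K1/S6K2 set 19 of the 20 rose, where 8.28% of tested genes rose and 4.89% fell, with Cd68 (2.33, SE 0.31, adjusted P = 0.00110), Adgre1 (2.78, SE 0.41, adjusted P = 0.00221) and Ctss (3.43, SE 0.51, adjusted P = 0.00222, edgeR) first.

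Between KO and late WT MEFs the log2 fold changes of all 20 markers were below 0, with a median of -0.87, and none passed the test by edgeR (0.0354% of tested genes fell), whereas DESeq2 called 6 lower. At an unadjusted P under 0.05, edgeR had 1499 of all tested genes. Between DKO and late WT MEFs 19 of the 20 fell, with a median log2 fold change of -2.37, where 3.95% of tested genes fell and 0.821% rose. Cd68 (-2.40, SE 0.35, adjusted P = 0.00511), Mrc1, the mannose receptor (-4.03, SE 0.60, adjusted P = 0.00580), and Itgam (-2.90, SE 0.49, adjusted P = 0.00975, edgeR) had the smallest P values. This count rested on single libraries: 2 markers passed without DKO library 2 or DKO library 3, 7 without late WT library 2 and 6 without late WT library 3, and Itgam was lost without DKO library 2 or 3. With no filter on low counts 6 passed. How far the macrophage markers account for the cluster genes was not tested, and the cells that made the transcripts cannot be told from bulk RNA.

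To set the cluster genes against these markers, each level was divided by the summed marker CPM of its library and multiplied by 1000. Lyz2 made up the largest part of this sum, with a mean of 4940 of 8692 CPM in late WT of the S6K1 set. In late WT of the S6K1/S6K2 set it was 6756 of 10764 CPM. There Lyz2 rose with passage by a log2 fold change of 3.23 (SE 0.51), against a median of 2.58 for the 20 markers. Ratios on this scale thus follow Lyz2 more than the other markers. On this scale Gm11428 was still higher in late than in early WT, at 7.75 ± 1.40 against 1.31 ± 0.822 in the S6K1 set and 5.70 ± 1.23 against 1.46 ± 0.640 in the S6K1/S6K2 set (SD, n = 4 each), without overlap. It was at 1.11 ± 0.0456 in KO and 0.800 ± 0.442 in DKO (SD, n = 3), below all late WT libraries. Like Ccl6 (values below), Ccl9 went the other way with passage in both sets. Ccl9 was at 9.05 ± 1.83 in early and 4.68 ± 0.486 in late WT of the S6K1 set (SD, n = 4 each). In the S6K1/S6K2 set it was at 7.03 to 11.4 in early and 2.46 to 3.82 in late WT. It was lower again, at 2.05 ± 0.415, in KO and, at 1.74 ± 0.557, in DKO (SD, n = 3), with no overlap between any of the 3 groups of either set.

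Relative to the markers, Ccl3 was at 4.08 ± 1.31 in early WT, 1.23 ± 0.300 in late WT and 0.422 ± 0.0800 in KO, and Ccl4 at 3.37 ± 1.16, 1.71 ± 0.486 and 0.618 ± 0.186. KO lay below late WT without overlap for both. In the S6K1/S6K2 set Ccl3 was at 1.94 ± 0.139, 2.40 ± 0.449 and 1.69 ± 0.628 and Ccl4 at 1.67 ± 0.453, 1.76 ± 0.265 and 1.20 ± 0.281 in early WT, late WT and DKO, and DKO overlapped with late WT for both. Ccl6 was at 0.832 ± 0.360 in early WT, 0.411 ± 0.0778 in late WT and 0.295 ± 0.139 in KO. In the S6K1/S6K2 set it was at 1.02 ± 0.111 in early WT, 0.390 ± 0.196 in late WT and 0.276 ± 0.0825 in DKO. Its late WT libraries lay below early WT without overlap in both sets, and both mutants overlapped with late WT. Ccl5 was at 4.20 ± 2.15 in early WT, 0.370 ± 0.207 in late WT and 1.16 ± 1.16 in KO. In the S6K1/S6K2 set Ccl5 was at 1.05 ± 0.997 in early WT, 0.0715 ± 0.0807 in late WT and 0.351 ± 0.234 in DKO. Early and late WT did not overlap for Ccl5 in the S6K1 set but did in the S6K1/S6K2 set. In these sentences n is 4 for WT and 3 for mutant groups, and errors are SD. The scale was set after the data were seen, and these values carry no test.

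**Figure D3:**
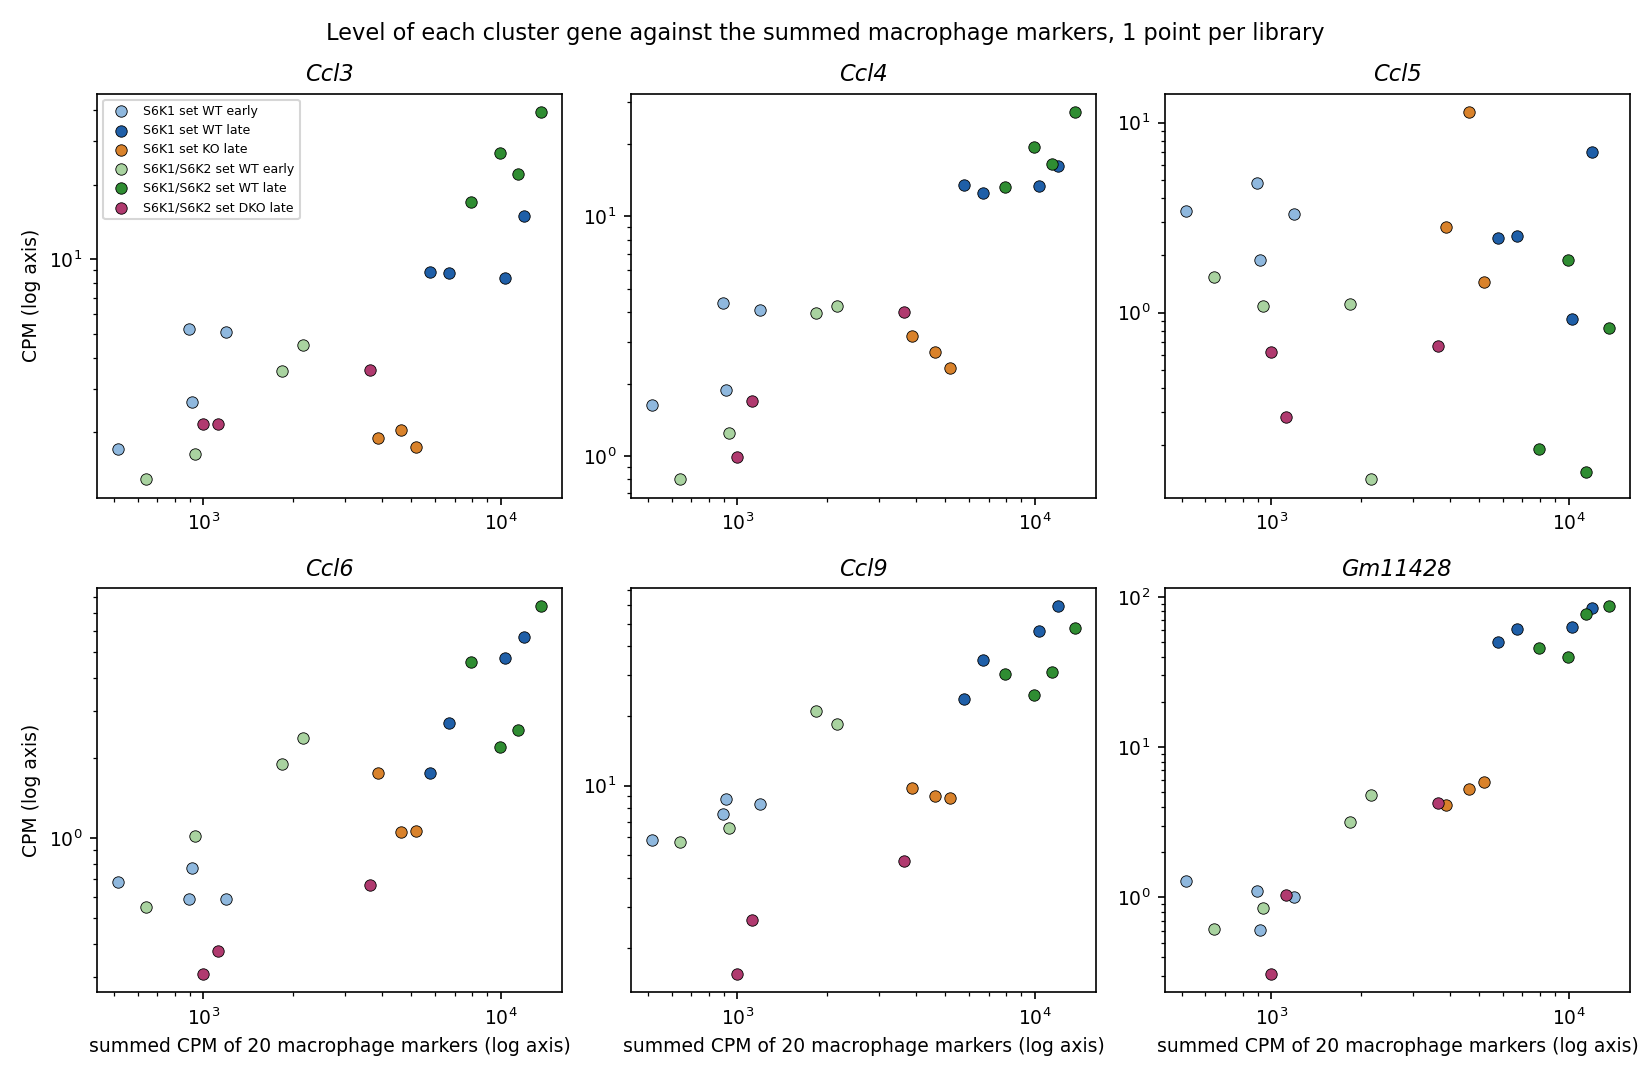
Level of each cluster gene in CPM against the summed CPM of 20 macrophage markers (both log axes), with 1 point per library coloured by group. Lyz2 is the largest part of the sum. KO libraries, at sums of 3878 to 5205 CPM, have Gm11428 levels of 4.09 to 5.89 CPM. The late WT library of the same set with the lowest sum, 5779 CPM, has 49.9 CPM. Ccl3, Ccl4 and Ccl9 of that library also lie above all KO libraries. Its Ccl6, at 1.75 CPM, and its Ccl5, at 2.47 CPM, lie within the KO ranges of 1.05 to 1.76 and 1.44 to 11.4 CPM. The part of the markers in these values was not tested.

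**Figure D4:**
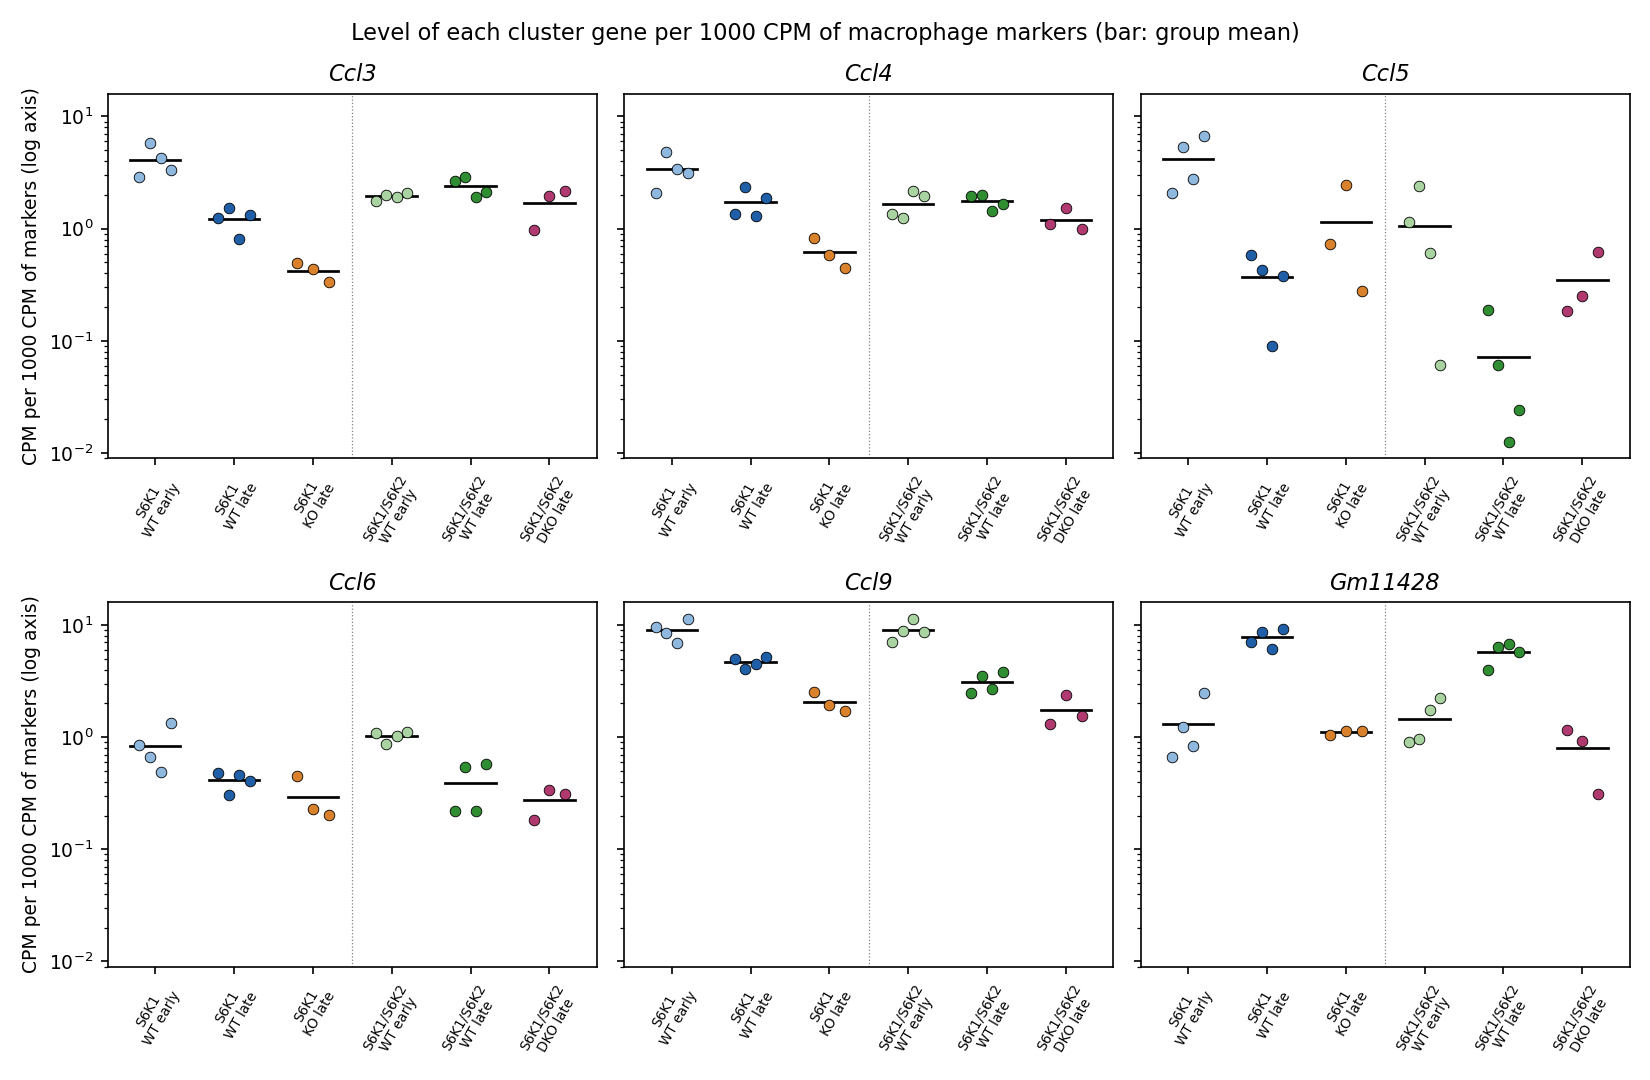
Level of each cluster gene per 1000 CPM of summed macrophage markers (log axis) in each library, by group, with bars for group means. Lyz2 is the largest part of the summed markers. Gm11428 is higher in late WT than in all other groups, Ccl9 is highest in early WT, lower in late WT and lowest in the mutants, and Ccl3 and Ccl4 overlap between late WT and DKO. Ccl6 is also lower in late than in early WT in both sets.

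Markers of other cells that could have made these chemokines were scarce. The 8 T and NK cell markers summed to at most 0.652 CPM, and the 4 mast cell and 5 dendritic cell markers to at most 0.371 and 0.968 CPM in any library. Of 6 neutrophil markers only Csf3r, also expressed by monocytes, passed the filter. It was at 2.61 ± 1.72 CPM in late WT against 0.0856 ± 0.0989 CPM in early WT of the S6K1 set (SD, n = 4 each; adjusted P = 0.00222, edgeR). Csf3r rose in the S6K1/S6K2 set by a log2 fold change of 2.41 (SE 0.53, adjusted P = 0.0121, edgeR) with passage, and its call in DKO (-2.32, SE 0.61, adjusted P = 0.0495, edgeR) was lost on leaving out any library of the set other than early WT library 4 (adjusted P up to 0.166). Among fibroblast markers Col1a1 and Col1a2 fell with passage in both sets. Their log2 fold changes in the S6K1/S6K2 set were -1.40 (SE 0.21, adjusted P = 0.00183) and -0.89 (SE 0.15, adjusted P = 0.00350, edgeR), and in the S6K1 set both calls were lost without single libraries, with adjusted P values of up to 0.101 (7 such libraries for Col1a2 and 9 for Col1a1, late WT libraries 1 and 4 among them). Of 4 endothelial and 4 epithelial markers, 2 each were tested, and only Kdr in the S6K1 set (-1.29, SE 0.38, adjusted P = 0.0446, edgeR, lost without any 1 of 9 libraries, up to 0.122) and Krt8 in the S6K1/S6K2 set (0.997 ± 0.527 CPM in early and 0.0477 ± 0.0955 CPM in late WT, SD, n = 4 each; adjusted P = 0.0143, edgeR) were lower in late WT. Pdgfrb was higher in DKO (0.55, SE 0.14, adjusted P = 0.0440, edgeR), a call lost without any 1 of 10 libraries (up to 0.119).

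Embryo sex was not balanced. Y-linked transcripts were above 1 CPM in 2 of 4 early WT, 1 of 4 late WT and 3 of 3 KO libraries of the S6K1 set, and in 2 of 4, 3 of 4 and 1 of 3 libraries of the S6K1/S6K2 set. In the S6K1 set the single late WT library with Y-linked transcripts, library 3, had 63.3 CPM of Gm11428, 46.6 of Ccl9, 13.4 of Ccl4 and 8.41 of Ccl3, all above the highest KO library. When the average Y-linked level entered the fit as a covariate, the KO against late WT values were -3.50 for Gm11428, -2.35 for Ccl9, -2.26 for Ccl4, -2.31 for Ccl3 and -1.74 for Ccl6 on the log2 scale, near those without it. All KO libraries held Y-linked transcripts and only 1 late WT library did, so sex and genotype can hardly be told apart in this set. At passage 8 the adjustment rests on that late WT library, and the part of sex in these values was not tested. For Ccl5 the covariate moved the value from 0.70 to 1.79 in KO and from -0.53 to 0.07 in DKO.

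Among receptors and decoys of chemokines, Ccrl2, an atypical receptor that binds chemerin, rose from 0.268 ± 0.0759 to 7.65 ± 1.64 CPM (SD, n = 4 each) with passage in the S6K1/S6K2 set (log2 fold change 4.85, SE 0.42, adjusted P = 7.4e-05, edgeR). It was lower in DKO than in late WT, at 1.96 ± 1.20 CPM (SD, n = 3; log2 fold change -1.97, SE 0.38, adjusted P = 0.0147, edgeR). This DKO call was lost without DKO library 2 or 3 (adjusted P up to 0.0953). In the S6K1 set Ccrl2 passed neither with passage nor between KO and late WT. Ccr1, the receptor of Ccl6 and Ccl9, passed in none of the 4 comparisons of passage and genotype.

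The other CC chemokines of chromosome 11, the monocyte chemoattractant and eotaxin group, passed the test with genotype in neither set. Of its 6 genes 5 were tested, none was called between KO or DKO and late WT by edgeR, none was lower by DESeq2, and the median log2 fold changes were -0.27 and 0.13. Ccl2 and Ccl7, monocyte attractants that fibroblasts make, were at 127 ± 20.8 and 176 ± 51.7 CPM in KO (SD, n = 3), against 150 ± 42.4 and 187 ± 43.7 CPM in late WT (SD, n = 4), and at 137 ± 33.9 and 185 ± 57.1 CPM in DKO (SD, n = 3), against 142 ± 62.4 and 169 ± 68.1 CPM in late WT (SD, n = 4). These differences were smaller than the spread between libraries. Ccl11 was at 1.57 ± 0.285 CPM in KO (SD, n = 3) against 16.4 ± 16.1 CPM in late WT (SD, n = 4), with an adjusted P of 0.299 (edgeR). With passage 2 genes rose in each set. Ccl8 rose in the S6K1 set (log2 fold change 1.25, SE 0.24, adjusted P = 0.00561, edgeR), without loss of the call under any alternative tried. Ccl11 (eotaxin) in the S6K1 set (2.99, SE 0.91, adjusted P = 0.0497), and Ccl2 (1.31, SE 0.35, adjusted P = 0.0328) and Ccl8 (1.51, SE 0.43, adjusted P = 0.0423, edgeR) in the S6K1/S6K2 set, each lost the call without any 1 of 5 to 8 libraries, among them early WT libraries 1, 2 and 4 of their set, with adjusted P values of up to 0.142.

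Of 10 CC chemokines on other chromosomes, 4 were tested in the S6K1 set and 3 in the S6K1/S6K2 set, and only Ccl17 passed anywhere. In the S6K1 set it had 1.10 ± 0.823 CPM in late WT, against 0.0626 ± 0.0836 CPM in early WT (SD, n = 4 each; adjusted P = 0.0225, edgeR), and lost the call without early WT library 2 or 4 or late WT library 1 (adjusted P up to 0.0614). Among inducers, Tnf, a macrophage cytokine that drives NF-kappa-B, rose from 1.50 ± 1.23 to 11 ± 2.50 CPM (SD, n = 4 each) with passage in the S6K1/S6K2 set (log2 fold change 2.92, SE 0.47, adjusted P = 0.00270, edgeR). Il1b was at 1.59 ± 0.460 CPM in late WT of that set (SD, n = 4), with 0 or 1 count in each early WT library (adjusted P = 0.00131, edgeR). In DKO Il1b was at 0.435 ± 0.373 CPM (SD, n = 3), which did not pass against late WT (log2 fold change -1.92, SE 0.63, adjusted P = 0.119, edgeR). In DKO Tnf was at 2.38 ± 0.182 CPM (SD, n = 3; log2 fold change -2.20, SE 0.51, adjusted P = 0.0310, edgeR), a call lost without any 1 of the 3 DKO libraries or without late WT library 2 or 3 (adjusted P up to 0.139). In the S6K1 set only 3 of the 8 inducers were tested, Il1b not among them, and none of these passed. There Tnf had 5.29 ± 2.26 CPM in late WT, against 2.92 ± 0.974 CPM in early WT (SD, n = 4 each).

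All 16 transcription factors known to act at such promoters were tested. With passage 4 rose and 2 fell in the S6K1 set, and 7 rose and 1 fell in the S6K1/S6K2 set. Spi1 (PU.1), Cebpa, Irf5 and Irf8, factors of the myeloid lineage or of interferon responses, rose with passage in both sets. Spi1 rose by a log2 fold change of 3.15 (SE 0.34, adjusted P = 0.000119) in the S6K1 set and 2.97 (SE 0.39, adjusted P = 0.00104, edgeR) in the S6K1/S6K2 set. Irf5 rose by 2.74 (SE 0.25, adjusted P = 4.27e-05, edgeR) in the S6K1 set and Cebpa by 2.26 (SE 0.17, adjusted P = 3.22e-05, edgeR) in the S6K1/S6K2 set. The same 4 factors fell in DKO, with Cebpa (-1.61, SE 0.18, adjusted P = 0.00155), Spi1 (-2.30, SE 0.42, adjusted P = 0.0129) and Irf5 (-1.77, SE 0.35, adjusted P = 0.0156, edgeR) first. Without DKO library 2 or without DKO library 3 only 1 of the 16 was called lower, and Spi1 and Irf5 had adjusted P values of up to 0.0953. None of the 16 passed between KO and late WT by edgeR, where Spi1 was at 26.3 ± 6.73 CPM in KO (SD, n = 3) and 47.9 ± 17.3 CPM in late WT (SD, n = 4), and 2 were called lower by DESeq2. These factors moved in the same direction as the macrophage markers above, and their part in the levels of the cluster genes was not tested.

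The NF-kappa-B subunits Nfkb1, Nfkb2, Rel, Rela and Relb passed in no comparison. Relb, for example, was at 24.4 ± 4.82 CPM in late WT of the S6K1 set (SD, n = 4) and 24.8 ± 2.04 CPM in KO (SD, n = 3). The AP-1 gene Fos, an immediate-early gene, went in opposite directions with passage in the 2 sets. It fell from 186 ± 47.3 to 5.97 ± 1.77 CPM in the S6K1 set (log2 fold change -4.96, SE 0.24, adjusted P = 4.43e-07, edgeR) and rose from 5.27 ± 1.64 to 238 ± 54.2 CPM in the S6K1/S6K2 set (5.54, SE 0.28, adjusted P = 1.69e-06, edgeR; SD, n = 4 each). The mutants were within the spread of late WT of their set, at 5.37 ± 0.195 CPM in KO and 268 ± 63.8 CPM in DKO (SD, n = 3 each).

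The cluster lies 2.79 to 2.97 Mb from Rps6kb1 on the same chromosome, so genotype and anything inherited with the targeted copy of this region cannot be told apart. Within 500 kb of the cluster 35 other genes are listed, of which 15 were tested in the S6K1 set and 16 in the S6K1/S6K2 set. With passage AI662270 rose in both sets (log2 fold change 2.56, SE 0.34, adjusted P = 0.000442, and 3.10, SE 0.42, adjusted P = 0.00102, edgeR). In late WT of the S6K1/S6K2 set Gm11427 had 1.29 ± 0.532 CPM, against 0.127 ± 0.0578 CPM in early WT (SD, n = 4 each; adjusted P = 0.00529, edgeR). Tada2a fell in both sets by less than 1 on the log2 scale (-0.62, SE 0.17, adjusted P = 0.0309, and -0.64, SE 0.16, adjusted P = 0.0254, edgeR) and Slfn2 rose in the S6K1 set (0.86, SE 0.26, adjusted P = 0.0490, edgeR), and these 3 calls were each lost without any 1 of 4 to 9 libraries, late WT libraries 2 and 3 among them in each case, with adjusted P values of up to 0.131.

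With genotype, Slfn10-ps, a Schlafen pseudogene 582 kb before the centre of the cluster, was lower in both mutants. It was at 0.496 ± 0.120 CPM in KO against 3.46 ± 0.889 CPM in late WT (adjusted P = 0.0204, edgeR) and at 0.0412 ± 0.0714 CPM in DKO against 1.95 ± 0.779 CPM in late WT (adjusted P = 0.00577, edgeR; SD, n = 3 and 4), with 0, 0 and 2 counts in the DKO libraries. The KO call was lost without any 1 of the 3 KO libraries or without late WT library 3 or 4 (adjusted P up to 0.150). In DKO 4 of the 16 neighbours fell, also AI662270 (-2.79, SE 0.47, adjusted P = 0.00762), Slfn2 (-2.07, SE 0.34, adjusted P = 0.00793, edgeR) and Gm11427, and 1 of the 4 was called without DKO library 2 and 2 without DKO library 3. The 4 lie on the Ccl5 side of the cluster, 359 to 582 kb from its centre. Slfn10-ps and Slfn2 are Schlafen genes, and their values are uncertain because similar members of that family can share reads. The tested genes outside the cluster, from Ap2b1 to Acaca at the far end, had genotype values of -0.38 to 0.21 in both sets, apart from Rasl10b at 1.36 (SE 0.25, adjusted P = 0.137, edgeR) in KO. On the Ccl5 side, KO values were also -2.51 for Gm11425 (SE 0.54), -1.71 for AI662270 (SE 0.36) and -1.23 for Slfn2 (SE 0.29). Of the 15 neighbours tested in the S6K1 set, 10 had KO values below 0 and 5 above 0. Apart from Slfn10-ps, no neighbour within 500 kb was called between KO and late WT by edgeR, whereas DESeq2 called 4 lower.

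**Figure D5:**
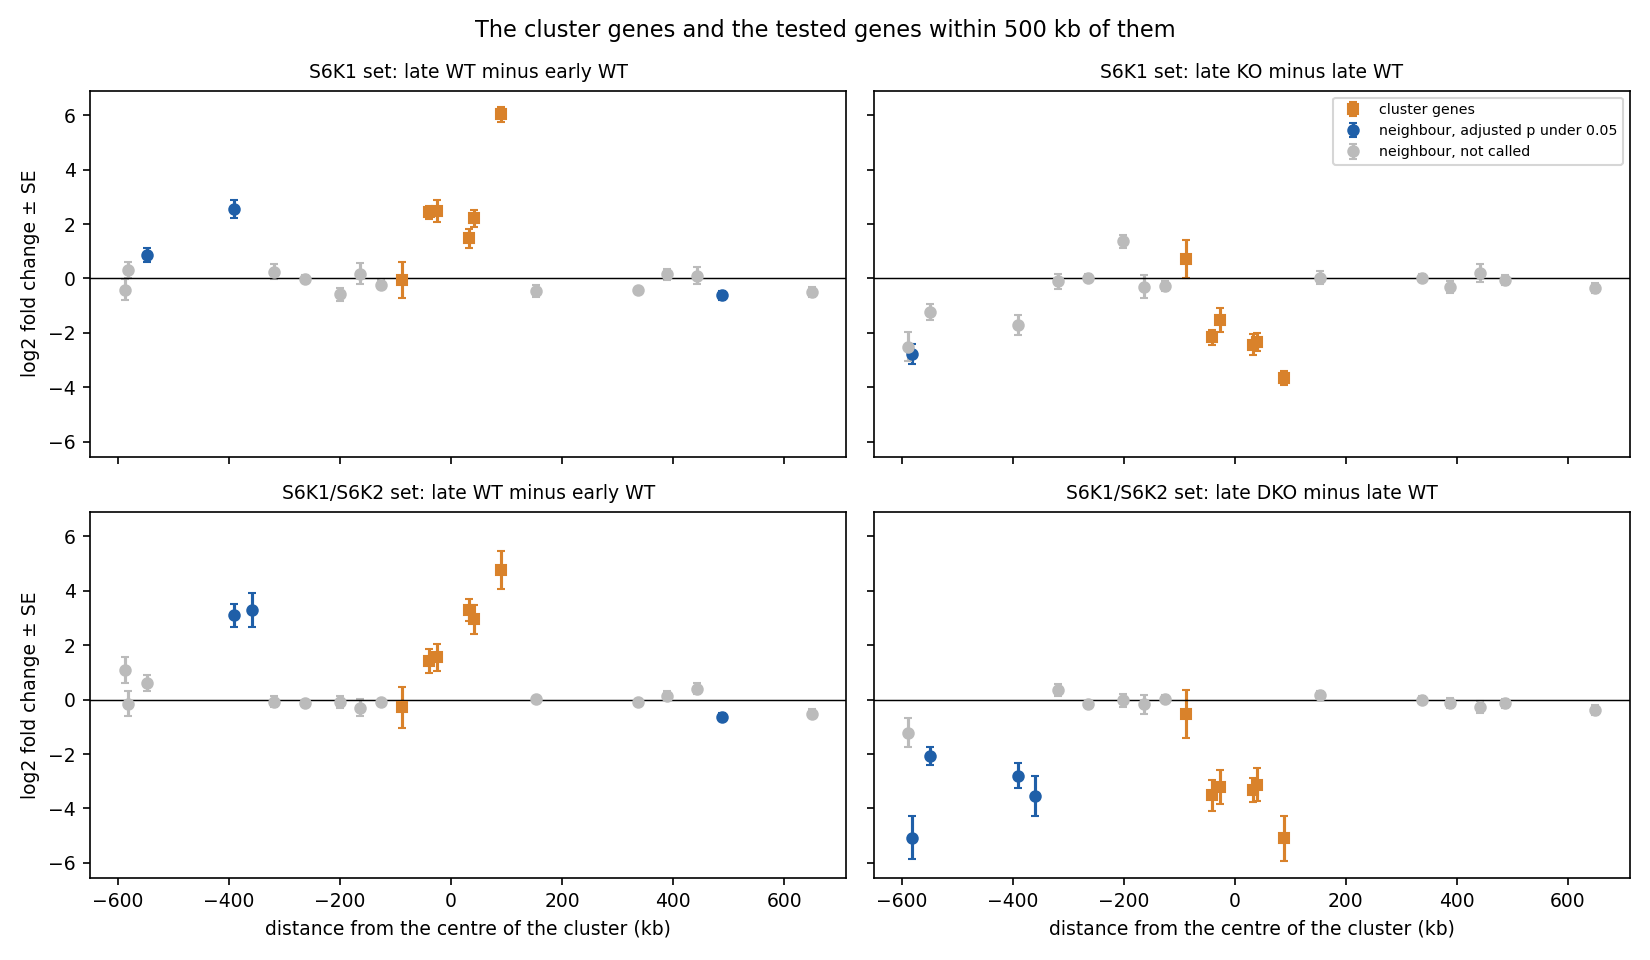
Log2 fold change with SE of the cluster genes (orange squares) and of tested genes within 500 kb, against distance in kb from the centre of the cluster, for passage (left) and genotype (right) in each set. Orange squares other than Ccl5 stand off 0 in opposite directions on the left and right, with genes near 0 on both sides of them. Towards the left edge, KO values are -2.51 for Gm11425, -2.77 for Slfn10-ps, -1.23 for Slfn2 and -1.71 for AI662270. Of these only Slfn10-ps was called by edgeR. Rasl10b, at 1.36 in KO, lies above 0. The DKO value of Slfn10-ps rests on 2 counts and depends on the prior count of the fit.

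Across the 22 libraries, log2 levels of the cluster genes other than Ccl5 moved together. Pearson's r was 0.95 for Ccl3 with Ccl4 and for Ccl6 with Ccl9, and 0.76 to 0.94 for the other pairs, while Ccl5 had r of -0.18 to 0.02 with the rest. When group means were removed, so that only differences between libraries of a group remained, r was 0.91 for Ccl3 with Ccl4, 0.85 for Ccl6 with Ccl9, 0.54 to 0.83 for the other pairs and -0.22 to 0.13 for Ccl5. The closest pairs were thus the MIP-1 ligands and Ccl6 with Ccl9 in both views, but by narrow margins. Ccl4 with Gm11428 had r of 0.94 over the 22 libraries, and Ccl9 with Gm11428 had 0.83 with group means removed. Because the genes were chosen on levels seen in these libraries, high r over the 22 libraries was partly set by the choice. These correlations are descriptions over 22 libraries of 6 groups that share scaling and culture, and they carry no P value.

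Of 13759 genes outside the cluster, those most like the mean of the 6 over the 22 libraries were Arrb2 (r = 0.97), a beta-arrestin that desensitizes chemokine receptors, Lyl1 (0.97), Card9 (0.96), an adaptor of fungal sensing in myeloid cells, AI662270 (0.95) and Lat2 (0.94). With group means removed they were Arrb2 (0.91), Pld4 (0.91), Alox5ap (0.90), which serves leukotriene synthesis, Laptm5 (0.89) and Mpeg1 (0.89), of which the last 2 are on the macrophage marker list. The 20 markers had r of 0.80 to 0.93 over the 22 libraries and of 0.66 to 0.89 with group means removed. AI662270 is also the neighbour 391 kb from the centre of the cluster described above.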

How the data were processed

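RNA-seq libraries of 22 MEF cultures were used as read counts per gene, deposited by the authors as raw counts with no normalization. The submitters' processing notes name CASAVA, STAR 2.7.1a, DESeq2 1.28.1 and the mm10 build, whereas the published methods name TopHat, HTSeq and mm9. Which made the table is not settled, and a different aligner or annotation would change reads in overlapping genes. Totals were 10742454 to 17314832 counts per library. Identifiers were matched to symbols through the reference tables (32589 of 55401, holding 96.98% of counts).

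Each set of 11 libraries was fitted with edgeR 4.0.16 in R 4.3.3 (filterByExpr, TMM, quasi-likelihood F test, two-sided, Benjamini-Hochberg over all genes tested, threshold 0.05). Levels are CPM with TMM factors over 22 libraries. Correlations used log2 CPM with a prior count of 2. Alternatives were DESeq2 1.42.0, RLE scaling, no filter, other samples in the fit, a Y-linked covariate and leaving out each library. The scripts were tested on simulated data. The cluster genes and the gene lists were chosen with earlier results of these data known, so no P value is given for the cluster genes. Named from each list were at most 3 genes per comparison that passed, by smallest adjusted P, and 5 genes by likeness. Csf3r, Kdr, Krt8, Pdgfrb and other list genes that did not pass were named after their values were seen where a result turned on them. Results of a few list genes are not reported here.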

Additional observations from a re-analysis of the deposited data

Results flagged for a closer look

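Ccl3 in late WT MEFs of the S6K1 set had 1 library, at 14.9 CPM, whose gap to the other 3 took up more of the group's range than Dixon's critical value allows. Of the 24 groups of 4 libraries checked over the 6 cluster genes, this was the only one so marked, and chance marks about 1 in 20.

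Fos and Jun, the AP-1 genes, passed the test with passage in both sets but in opposite directions. The log2 fold changes of late against early WT were -4.96 and 5.54 for Fos and -1.34 and 0.66 for Jun in the S6K1 and S6K1/S6K2 sets, with every late WT library beyond every early WT library. Jun was at 156 to 232 CPM in early and 70.5 to 90.5 CPM in late WT libraries of the S6K1 set, and at 73.6 to 80.4 and 107 to 124 CPM in those of the S6K1/S6K2 set (n = 4 each). The difference between the sets was not tested.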

How the results depend on the processing

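The median log2 fold change of the cluster genes kept its direction and size under every alternative run, with ranges over the libraries left out in turn of 2.16 to 2.44 (passage) and -2.35 to -2.06 (KO) in the S6K1 set and 1.95 to 2.59 (passage) and -3.72 to -2.96 (DKO) in the S6K1/S6K2 set. Counts of genes called over the whole table moved more. For passage in the S6K1 set, 1827 genes became 3265 with the Y-linked covariate. Between KO and late WT, 6 genes became 261 by DESeq2, 43 with no filter on low counts, 38 with the Y-linked covariate and 16 in a fit of all 6 groups, and 2 to 9 with a library left out. For passage in the S6K1/S6K2 set, 1892 became 2845 by DESeq2 and 885 to 2247 with a library left out, lowest without early WT library 1. Between DKO and late WT, 686 became 1206 by DESeq2 and 97 to 783 with a library left out, with 97 without DKO library 2 and 157 without DKO library 3. The causes were not tested. No called result changed direction, but values near 0 changed sign when single libraries were left out. This held for Ccl5 with passage in both sets (up to 0.29 and 0.03), between KO and late WT (-0.61 without KO library 2) or early WT (-0.63 without it), and between DKO and late WT (0.44 without late WT library 1, and 0.07 with the Y-linked covariate). It also held for Ccl4 between KO and early WT and for Ccl3, Ccl4 and Gm11428 between DKO and early WT. All 36 group levels of the cluster genes moved by less than 1 SD with plain CPM. No paired analysis was possible because the labels give no replicate numbers shared between groups. Depth limits Ccl5, with as few as 2 counts in a library, and Ccl6, with as few as 4. The alternatives for single genes and lists outside the cluster were added after the data were seen.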
